A study of Mus musculus with 18 samples.

Results

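miR-140 and miR-455 are the microRNAs (miRNAs) best known from cartilage, and both arms of each hairpin were followed here in mouse knees through the first week after the anterior cruciate ligament (ACL) was ruptured. The 4 mature miRNAs, mmu-miR-140-5p, mmu-miR-140-3p, mmu-miR-455-5p and mmu-miR-455-3p, here without the prefix, were taken by name from the 1412 mature miRNAs of the deposited count table. They were chosen for what is known of them in cartilage and not by a value in these libraries, though earlier results of these data were known. All 4 passed the filter on low counts, together with 424 other miRNAs.

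The 18 small RNA libraries were made from cartilage caps of the femoral condyles of 12-week-old male C57Bl/6J mice (C57bl6 in the labels), without genetic modification. A single mechanical load ruptured the ACL of the right knee, and this knee was collected at day 1 (n = 3) or day 7 (n = 3). The uninjured left knees of loaded mice formed the contralateral groups at day 1 (n = 3) and day 7 (n = 3), and knees of mice that were not loaded formed the naïve group (n = 6), which the labels place at day 7. No naïve group was labelled for day 1, and contralateral cartilage came from mice that had also been anaesthetised and injured. Each library held cartilage pooled from several mice. The paper injured 6 mice for day 1 and 12 for day 7, and reports pooling more mice at day 7 because cartilage was partly lost. Pool size and cartilage loss therefore cannot be told apart from the day. The paper names 6 naïve mice for the naïve libraries. Pool size may thus also differ between day 7 loaded mice and naïve mice, and cannot be told apart from loading there. Which pools shared mice is not labelled. Left and right knees of the 6 naïve mice were pooled separately, so naïve libraries share mice. P-values therefore measure the spread between these pools, and they treat all libraries as independent, also those that share mice.

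A miRNA is cut from a hairpin transcript, and the strands that leave the hairpin are named 5p and 3p after the arm they came from. The strand that is loaded into an Argonaute protein pairs with messenger RNAs mainly through its seed, the bases near its 5′ end. miR-140 is made from an intron of Wwp2 and miR-455 from an intron of Col27a1, a fibrillar collagen gene of cartilage. Both are linked to the chondrocyte transcription factor SOX9, and mice without miR-140 have short bones and cartilage that wears early.

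The mature sequences are shown because the seeds and the G and C content of the arms are referred to in the descriptions that follow. They are RefSeq sequences on GRCm38.p6, written 5′ to 3′ with the seed (bases 2 to 8) in capitals. An entry was matched for 3 of the 4 miRNAs, and miR-140-5p is named only.
miR-140-3p: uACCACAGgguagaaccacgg
miR-455-5p: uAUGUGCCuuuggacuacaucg
miR-455-3p: gCAGUCCAcgggcauauacac
The 3 seeds differ from each other. miR-140-3p (21 bases, 57.1% G and C) lies at chr8:107551288-107551308 on the plus strand, and the Mir140 hairpin at chr8:107551244-107551313 falls in intron 16 of 23 of Wwp2, outside its exons. miR-455-5p (22 bases, 45.5% G and C) lies at chr4:63256867-63256888 and miR-455-3p (21 bases, 57.1% G and C) at chr4:63256904-63256924, both on the plus strand. Their hairpin, at chr4:63256851-63256932, falls in intron 10 of 60 of Col27a1.

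Among the RefSeq mouse miRNAs, 1 other shared the seed of miR-140-3p, 1 shared that of miR-455-5p, and none shared that of miR-455-3p. These are shown because they could act on the same seed matches as the cartilage miRNAs.
miR-497b: cACCACAGugugguuuggacgugg
miR-5129-3p: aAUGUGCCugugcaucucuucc
Both were close to absent. miR-497b had 86 counts over the 18 libraries and at most 16 in a library, and miR-5129-3p had 81 counts and at most 15. Neither passed the filter on low counts. Among miRNAs with a RefSeq sequence, nearly all reads with these seeds thus came from miR-140-3p and miR-455-5p.

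Libraries held between 758388 and 4088852 counts. The 4 miRNAs together made up between 0.507% and 1.116% of the counts of a library. Markers of other tissues were present in all libraries, with no listed marker at 0. The 4 skeletal muscle miRNAs summed to 6.91% to 25.8% of counts, the 4 vascular miRNAs to 6.04% to 10.1%, the 5 erythroid miRNAs to 0.450% to 2.15% and the 5 leukocyte miRNAs to 0.268% to 1.17%. The 4 cartilage miRNAs were thus detected in every library, while the muscle and vascular miRNAs took more of the counts in all 18 and the erythroid miRNAs in 14. On the erythroid list, miR-486a-5p and miR-486b-5p had the same mean level and the same spread, so the same reads entered that sum more than once. The erythroid shares are thus too high as shares of distinct reads, and the 14 is an upper value. With bulk tissue, fewer chondrocytes in a pool and less of a miRNA per chondrocyte cannot be told apart. Day 7 contralateral replicate 1 stood apart, with the largest muscle share (25.8%), leukocyte share and vascular share, and the differences and spreads that it moved most are also given without it.

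miR-140-5p was the most abundant of the 4. Levels are CPM, counts scaled to a common library size, with the TMM correction that is based on the bulk of the miRNAs. In naïve cartilage miR-140-5p had 3069.7 CPM in the lowest, 4705 at the median and 6995 in the highest of 6 libraries. It had 5437, 4093 and 4053 CPM in day 1 contralateral and 5635, 2760.1 and 4516 CPM in day 1 injured cartilage. At day 7 it had 1912, 4983 and 6916 CPM in the contralateral and 4344, 6039 and 6973 CPM in the injured knee. The ranges of all 5 groups overlapped, and the lowest library was day 7 contralateral replicate 1. By count it ranked between 25 and 57 of all miRNAs in a library, with a median rank of 35, and it took 0.197% to 0.744% of counts.

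The other arm of this hairpin, miR-140-3p, was lower but much steadier. In naïve cartilage it had 2232, 2897 and 3250.1 CPM as the lowest, median and highest value. It had 2595, 3057 and 2831 CPM in day 1 contralateral and 2328, 3014 and 2336 CPM in day 1 injured cartilage. At day 7 it had 2873, 2082 and 2958 CPM in the contralateral and 2139, 2994 and 2636 CPM in the injured knee. All groups overlapped, and the highest of the 18 libraries was 1.56-fold above the lowest, against 3.66-fold for miR-140-5p (2.53-fold without day 7 contralateral replicate 1). Its rank stayed between 42 and 52, with a median of 46.

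miR-455-5p was far less abundant than the miR-140 arms and was the only one of the 4 with groups that did not overlap. In naïve cartilage it had 103.2, 143.3 and 239.7 CPM as the lowest, median and highest value. It had 146.0, 149.2 and 127.3 CPM in day 1 contralateral and 139.4, 102.2 and 101.5 CPM in day 1 injured cartilage. At day 7 it had 211.5, 143.2 and 220.0 CPM in the contralateral and 173.1, 239.9 and 282.6 CPM in the injured knee. Every day 7 injured library lay above every day 1 injured library, as was the case for 34.3% of all tested miRNAs in either direction. The naïve libraries spanned most of both ranges. Day 7 contralateral libraries also lay above every day 1 injured library, and day 7 injured libraries above every day 1 contralateral library. For these further pairs of groups the share of all miRNAs was not taken. These values rest on 122 to 851 counts per library, and the rank ran from 123 to 171.

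miR-455-3p was the least abundant and the most variable. In naïve cartilage it had 58.6, 93.7 and 193.8 CPM as the lowest, median and highest value. It had 74.0, 145.2 and 101.2 CPM in day 1 contralateral and 103.4, 128.2 and 162.8 CPM in day 1 injured cartilage. At day 7 it had 33.0, 158.6 and 65.7 CPM in the contralateral and 100.3, 134.0 and 91.7 CPM in the injured knee. The lowest value again came from day 7 contralateral replicate 1, with 48 counts, and the highest library was 5.88-fold above it. Without that library the highest of the other 17 was 3.31-fold above the lowest. All groups overlapped, and the rank ran from 139 to 234.

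**Figure D1:**
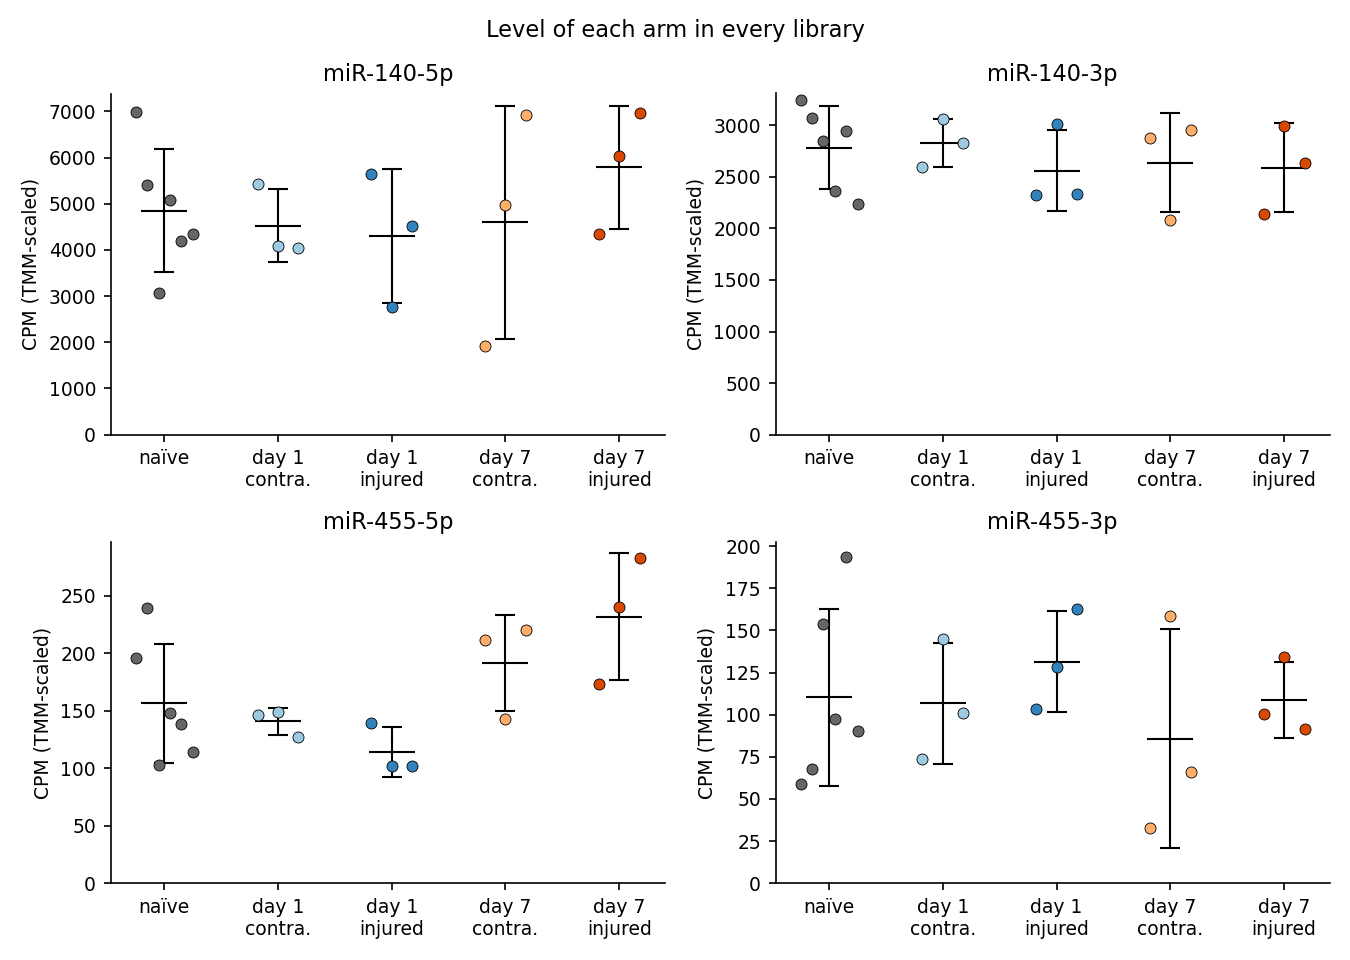
TMM-scaled CPM (y axis, from 0) of each of the 4 miRNAs in every library by group (x axis), with 1 point per library and bars for the mean ± SD (naïve n = 6, other groups n = 3). The miR-455-5p points of day 7 injured cartilage (173.1 to 282.6 CPM) lie above those of day 1 injured cartilage (101.5 to 139.4 CPM), and all groups overlap for the other 3 miRNAs.

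The order of the group means differed among the 4 miRNAs. For miR-140-5p the means ran from 5786 ± 1333 CPM (SD, n = 3) in day 7 injured through naïve (4848 ± 1328, n = 6), day 7 contralateral (4604 ± 2523, n = 3) and day 1 contralateral (4528 ± 787.6, n = 3) to day 1 injured cartilage (4304 ± 1449, n = 3). For miR-140-3p all 5 means lay between 2559 ± 393.8 CPM (SD, n = 3) in day 1 injured and 2828 ± 231.2 CPM (SD, n = 3) in day 1 contralateral cartilage. No neighbours in either order differed by more than the larger of their SDs.

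For miR-455-5p the means ran from 231.9 ± 55.2 CPM (SD, n = 3) in day 7 injured through day 7 contralateral (191.6 ± 42.1, n = 3), naïve (156.5 ± 51.9, n = 6) and day 1 contralateral (140.8 ± 11.8, n = 3) to day 1 injured cartilage (114.4 ± 21.7, n = 3). The last step, of 26.4 CPM, was the only one between neighbours that exceeded the larger SD, and the libraries of those groups still overlapped. For miR-455-3p the order was different, from 131.4 ± 29.8 CPM (SD, n = 3) in day 1 injured to 85.8 ± 65.2 CPM (SD, n = 3) in day 7 contralateral cartilage, with no step beyond the larger SD.

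Injury at day 1 was compared with both controls to ask whether the cartilage miRNAs responded early. Against the day 1 contralateral knee the log2 fold change of miR-140-5p was -0.11 ± 0.38 SE, and it was -0.16 ± 0.22 for miR-140-3p, -0.31 ± 0.31 for miR-455-5p and 0.33 ± 0.47 for miR-455-3p. None of the 4 was called (limma-voom, adjusted p = 0.997 for each, smallest unadjusted p = 0.321). Of all 428 miRNAs tested, limma-voom, edgeR and DESeq2 each called 0 (0%), and 8 had an unadjusted limma-voom p under 0.05. The libraries of the injured and contralateral knees overlapped for all 4, while 8.64% of tested miRNAs did not overlap. Against naïve cartilage the values were -0.18 ± 0.33, -0.13 ± 0.19, -0.41 ± 0.27 and 0.37 ± 0.41 in the same order. Again limma-voom, edgeR and DESeq2 called none of the 4 and 0 of 428 (0%), with 8 at an unadjusted limma-voom p under 0.05 (limma-voom adjusted p = 0.992 for each of the 4). None of the 4 was free of overlap here, against 1.4% of tested miRNAs. The 95% interval for miR-140-3p, the most precise of the 4, reached from -0.53 to 0.28 on the log2 scale against naïve cartilage, and that for miR-455-3p from -0.49 to 1.22.

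At day 7, when many miRNAs of this tissue differed after injury, the 4 cartilage miRNAs did not pass the test. Against naïve cartilage miR-455-5p had the largest difference, 1.52-fold (log2 fold change 0.60 ± 0.26 SE, 95% interval 0.05 to 1.15, unadjusted p = 0.0329, limma-voom adjusted p = 0.138). miR-140-5p had a log2 fold change of 0.29 ± 0.33 SE (limma-voom adjusted p = 0.607), with -0.09 ± 0.19 for miR-140-3p (adjusted p = 0.786) and 0.10 ± 0.41 for miR-455-3p (adjusted p = 0.890). Thus 0 of the 4 were called by limma-voom, edgeR or DESeq2 and 1 had an unadjusted limma-voom p under 0.05. Of all 428 tested miRNAs, 18.2% were called by limma-voom and 115 had an unadjusted p under 0.05. Without naïve replicate 2, the naïve library with the highest miR-455-5p level (239.7 CPM), miR-455-5p had a log2 fold change of 0.74 and passed the threshold (limma-voom adjusted p = 0.0482). The libraries of naïve and day 7 injured cartilage overlapped for all 4, while 24.1% of tested miRNAs did not overlap.

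Against the contralateral knee at day 7, which shares the day 7 injured libraries with the previous comparison, none of the 4 miRNAs passed the test either. In this pairing miR-140-5p had a log2 fold change of 0.49 ± 0.38 SE (limma-voom adjusted p = 0.495), with -0.00 ± 0.22 for miR-140-3p (adjusted p = 0.996), 0.28 ± 0.30 for miR-455-5p (adjusted p = 0.640) and 0.59 ± 0.48 for miR-455-3p (adjusted p = 0.516). Neither limma-voom, edgeR nor DESeq2 called any of the 4, whose smallest unadjusted p was 0.214, beside 14.7% of all tested miRNAs called by limma-voom. Without day 7 contralateral replicate 1 the value fell to 0.06 for miR-140-5p and to 0.13 for miR-455-3p. The value rose to 1.21 for miR-455-3p without day 7 contralateral replicate 2 (limma-voom adjusted p = 0.0846). For miR-140-5p it rose to 0.835 without day 7 contralateral replicate 3 (limma-voom adjusted p = 0.159). No groups of the 4 were free of overlap, against 26.6% of all miRNAs tested. The 95% interval for miR-140-3p reached from -0.46 to 0.46, which corresponds to 0.727-fold to 1.37-fold.

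Between day 1 and day 7 the injured cartilage differed in 1 of the 4 miRNAs. miR-455-5p was 2.01-fold higher at day 7 than at day 1 (log2 fold change 1.01 ± 0.31 SE, 95% interval 0.37 to 1.65, limma-voom adjusted p = 0.0277), and higher in 3 of 3 day 7 libraries than in any day 1 library. The call was also made by edgeR (adjusted p = 0.0271) and DESeq2 (adjusted p = 0.0076). The opposite arm, miR-455-3p, had a log2 fold change of -0.27 ± 0.48 SE (limma-voom adjusted p = 0.794). miR-140-5p had 0.47 ± 0.38 (adjusted p = 0.474) and miR-140-3p 0.03 ± 0.22 (adjusted p = 0.931). Of all tested miRNAs, 15.7% were called in this comparison, 12.1% as higher, and 1 called miRNA of 4 does not set these miRNAs apart from the table as a whole.

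The miR-455-5p call rested on few libraries. Among day 1 injured libraries it was lost when replicate 2 (limma-voom adjusted p = 0.0592) or replicate 3 (0.0707) was left out. Among day 7 injured libraries the same held for replicate 2 (limma-voom adjusted p = 0.0683) and replicate 3 (0.110), while the log2 fold change over all left-out libraries stayed between 0.96 and 1.36. It was also lost when every miRNA was kept in the test (adjusted p = 0.107) and when the GC trend of each library, the base-composition measure given with the arm ratios, was a covariate (log2 fold change 0.73, adjusted p = 0.118). The erythroid miRNAs, with the repeated miR-486 reads, summed to 0.450% to 0.639% of counts in day 7 injured and 0.879% to 2.15% in day 1 injured libraries. The GC trend lay between -0.155 and -0.054 in the former and between -0.064 and 0.367 in the latter. The parts of the erythroid miRNAs, of pool size and of cartilage loss in the difference were not tested. Without the muscle miRNAs the call was kept (log2 fold change 1.15, limma-voom adjusted p = 0.0119).

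The change with time in injured knees was not shown to differ from that in contralateral knees. The injured minus contralateral difference at day 7 less that at day 1 was 0.59 ± 0.43 SE on the log2 scale for miR-455-5p, with a 95% interval from -0.31 to 1.49 (limma-voom adjusted p = 0.588). It was 0.59 ± 0.54 for miR-140-5p, 0.16 ± 0.31 for miR-140-3p and 0.26 ± 0.67 for miR-455-3p (limma-voom adjusted p between 0.717 and 0.930). None of the 4 was called by limma-voom, edgeR or DESeq2, and none had an unadjusted p under 0.05, beside 6.78% of all tested miRNAs called by limma-voom.

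The contralateral knee at day 7 did not differ detectably from naïve cartilage in these miRNAs. miR-140-5p had a log2 fold change of -0.20 ± 0.33 SE, with -0.09 ± 0.19 for miR-140-3p, 0.32 ± 0.26 for miR-455-5p and -0.49 ± 0.41 for miR-455-3p (limma-voom adjusted p between 0.712 and 0.903, smallest unadjusted p = 0.233). Of all 428 miRNAs, limma-voom and edgeR called 0 (0%), DESeq2 called 1, which was none of the 4, and 23 had an unadjusted limma-voom p under 0.05. All 4 overlapped between these groups, while 1.87% of tested miRNAs did not. Without day 7 contralateral replicate 1, the value was 0.28 for miR-140-5p and 0.00016 for miR-455-3p.

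**Figure D2:**
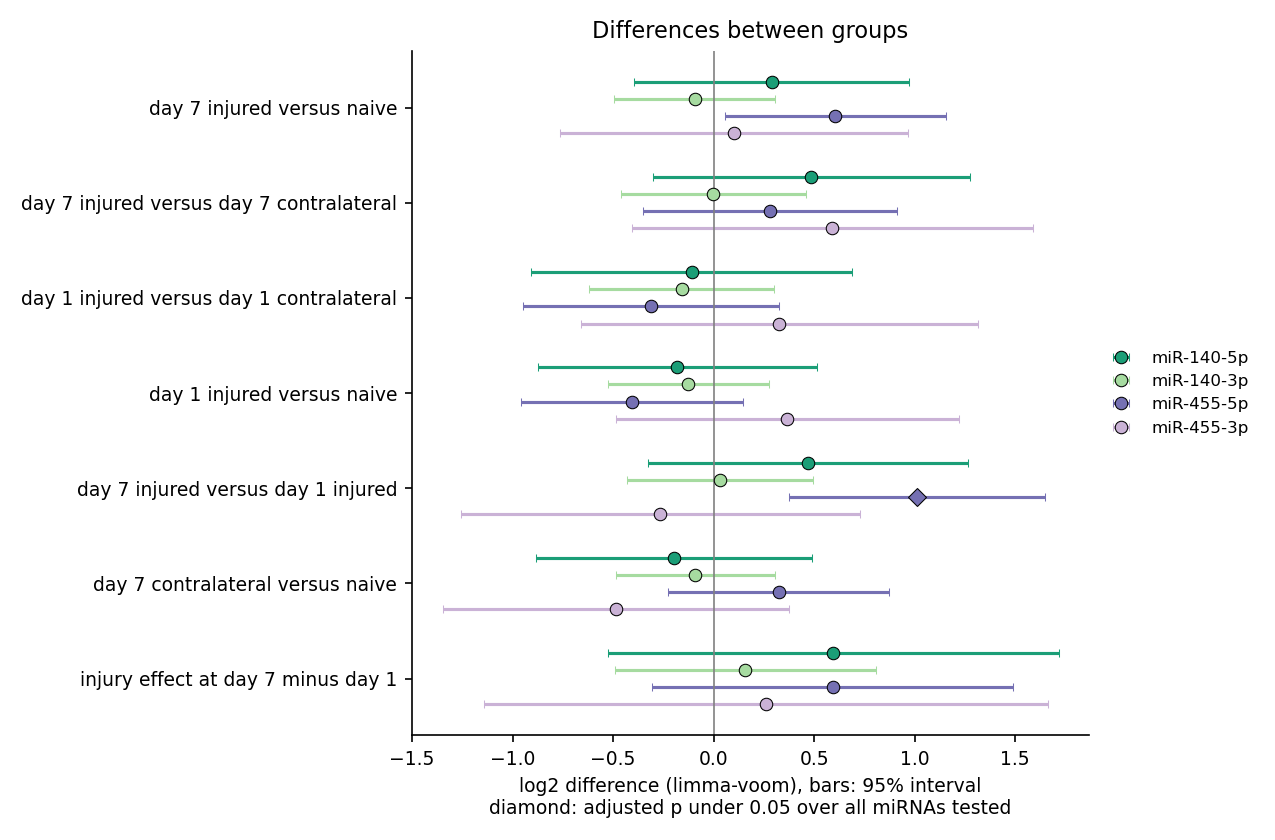
Log2 difference between groups (x axis) of the 4 miRNAs in 7 comparisons (y axis), from limma-voom over 428 miRNAs, with bars for the 95% interval and a diamond for an adjusted p under 0.05. The only diamond is miR-455-5p in day 7 injured versus day 1 injured cartilage, at 1.01, and the intervals of miR-140-3p are the narrowest and those of miR-455-3p the widest.

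The 4 miRNAs differed in how far libraries of the same group lay apart. The within-group SD of log2 CPM was 0.22 for miR-140-3p, which placed it 409 of 428 from the most variable, and 12 of 73 from the least variable among those that averaged 1000 CPM or more. It was 0.36 for miR-455-5p (312 of 428), 0.52 for miR-140-5p (157 of 428) and 0.65 for miR-455-3p (82 of 428), beside a median of 0.46 over all tested miRNAs. Without day 7 contralateral replicate 1 it was 0.39 for miR-140-5p (223 of 428), 0.22 for miR-140-3p (386 of 428), 0.37 for miR-455-5p (247 of 428) and 0.56 for miR-455-3p (91 of 428), with a median of 0.39. The arms of a hairpin thus differed in spread although they come from the same transcript, and the steadier arm was the 3p arm of miR-140 and the 5p arm of miR-455.

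**Figure D3:**
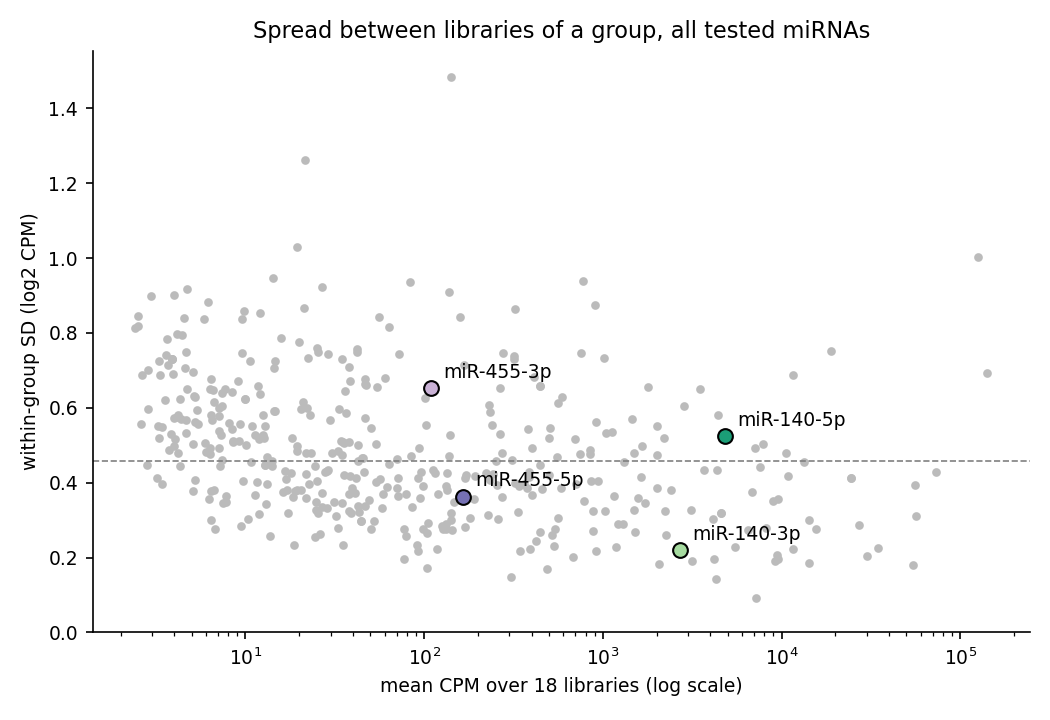
Within-group SD of log2 CPM (y axis) against mean CPM over the 18 libraries (x axis, log scale) for 428 tested miRNAs in grey, with the 4 cartilage miRNAs marked and a dashed line at the median SD. miR-140-3p (SD 0.22) lies low among abundant miRNAs, and miR-455-3p (0.65) lies above the median.

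The balance of the arms was then described within each library, where no library scaling is needed. Read counts of different small RNAs from adapter-ligation libraries depend on how well each sequence is ligated and copied, so the ratio compares libraries and does not count molecules. The 5p arm of miR-140 exceeded the 3p arm in 16 of 18 libraries, and the ratio of 5p to 3p counts ran from 0.666 to 2.65. The exceptions were day 7 contralateral replicate 1 (0.666) and day 1 injured replicate 2 (0.916). For miR-455 the 5p arm was higher in 13 of 18 libraries, and the ratio ran from 0.624 to 6.42, the highest again in day 7 contralateral replicate 1. In that library the hairpins therefore lay at opposite ends, with the lowest 5p share of miR-140 and the highest of miR-455.

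As a share of both arms, miR-140-5p made up 51.9%, 64.9% and 68.3% of miR-140 counts as the lowest, median and highest value in naïve cartilage. It made up 67.7%, 57.2% and 58.9% in day 1 contralateral and 70.8%, 47.8% and 65.9% in day 1 injured cartilage. At day 7 it made up 39.96%, 70.5% and 70.0% in the contralateral and 67.0%, 66.9% and 72.6% in the injured knee. The day 7 injured libraries lay close together (68.8% ± 3.26, SD, n = 3) and the day 7 contralateral libraries far apart (60.2% ± 17.5, SD, n = 3). The exact 95% binomial interval, which covers counting error only, was 38.8% to 41.1% for day 7 contralateral replicate 1.

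miR-455-5p made up 40.2%, 58.1% and 77.9% of miR-455 counts as the lowest, median and highest value in naïve cartilage. It made up 66.4%, 50.7% and 55.7% in day 1 contralateral and 57.4%, 44.4% and 38.4% in day 1 injured cartilage. At day 7 it made up 86.5%, 47.5% and 77.0% in the contralateral and 63.3%, 64.2% and 75.5% in the injured knee. The day 7 injured libraries (67.7% ± 6.81, SD, n = 3) lay closest together and within the range of the naïve libraries, and the day 7 contralateral libraries (70.3% ± 20.4, SD, n = 3) lay farthest apart. The lowest share, of day 1 injured replicate 3, had an exact interval from 34.3% to 42.7%, and the highest, of day 7 contralateral replicate 1, from 82.5% to 89.9%.

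**Figure D4:**
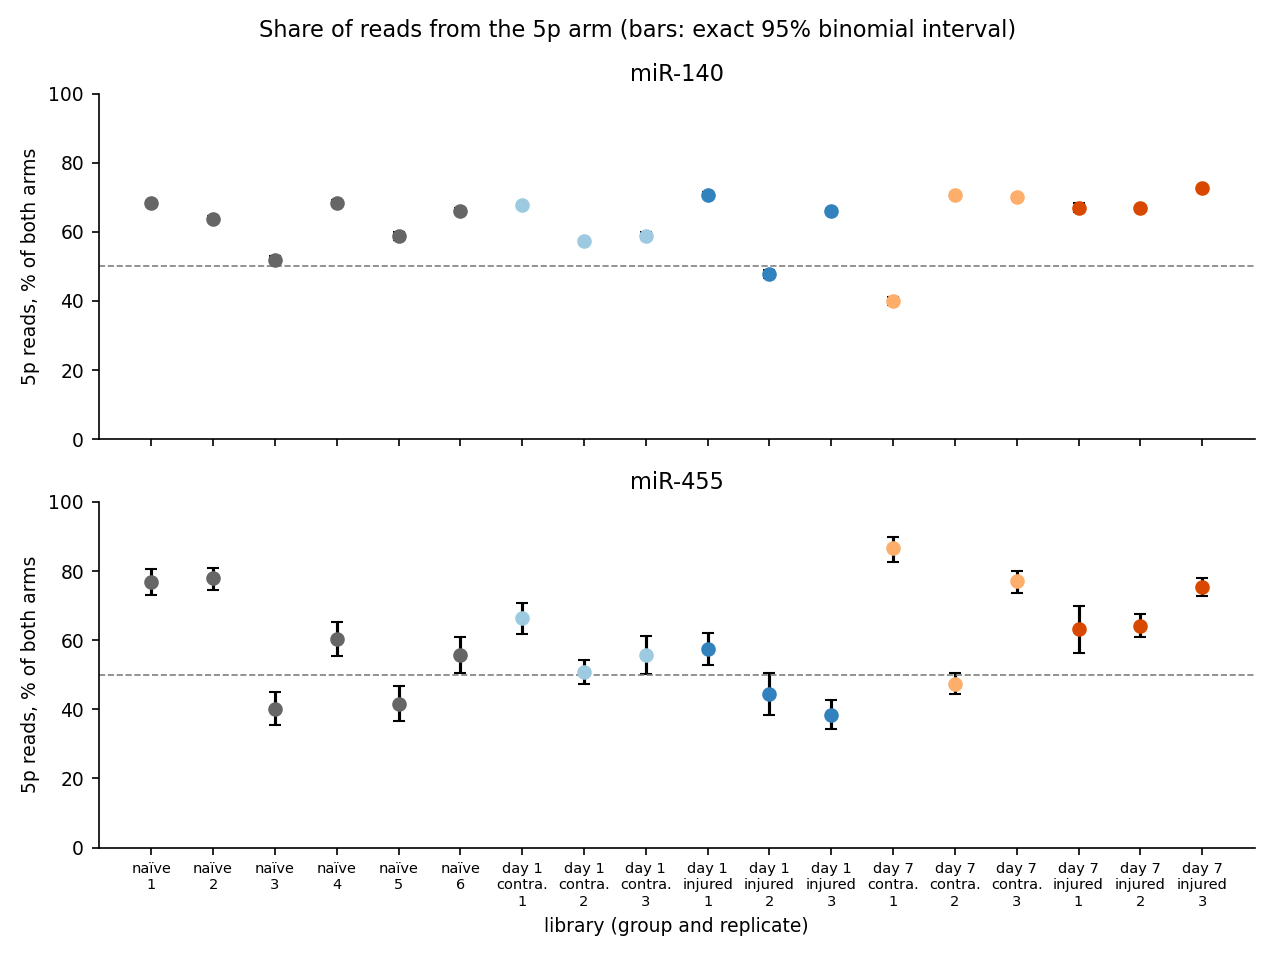
Share of 5p counts in the counts of both arms (y axis, %) in each of the 18 libraries (x axis) for miR-140 (top) and miR-455 (bottom), with bars for the exact 95% binomial interval and a dashed line at equal counts. miR-140 lies above the line in 16 libraries and miR-455 in 13, and day 7 contralateral replicate 1 has the lowest miR-140 share (39.96%) and the highest miR-455 share (86.5%).

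By read counts, which ligation and copying also shape, the arms of both hairpins lay closer to each other than those of most hairpins. Over the 18 libraries the mean log2 arm ratio was 0.78 for miR-140 and 0.65 for miR-455, which are 1.72-fold and 1.57-fold in favour of the 5p arm. The median size of this value over 111 hairpins with both arms tested was 2.85, and only 25 of them had arms within 2-fold of each other. In order from the ratio nearest to equal counts, miR-455 was 11 of 111 and miR-140 19 of 111. The 5p arm was the more abundant in 68 of the 111.

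No difference in arm ratio between groups passed the test for either hairpin. At day 7 the log2 arm ratio in injured less that in naïve cartilage was 0.38 ± 0.39 SE for miR-140 and 0.51 ± 0.59 SE for miR-455 (limma adjusted p = 0.793 for each, over 111 hairpins, of which 1.8% were called). Against the day 7 contralateral knee it was 0.51 ± 0.45 SE for miR-140 (limma adjusted p = 0.740) and -0.34 ± 0.68 SE for miR-455 (adjusted p = 0.909). Without day 7 contralateral replicate 1 these values were -0.10 and 0.29, with both signs turned. The exact permutation test over libraries gave p = 0.190 against naïve and p = 0.8 against contralateral cartilage for miR-140, and p = 0.405 and p = 0.7 for miR-455 (two-sided, each adjusted p at least 0.762 over 4 tests). The smallest p that it could give was 0.0238 against naïve and 0.1 against contralateral cartilage.

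At day 1 the differences in log2 arm ratio were 0.03 ± 0.45 SE for miR-140 and -0.64 ± 0.68 SE for miR-455 against the contralateral knee. Against naïve cartilage they were -0.07 ± 0.39 SE and -0.76 ± 0.59 SE (limma adjusted p between 0.895 and 0.998 for these 4 values, smallest unadjusted p = 0.208). The day 7 less the day 1 difference was 0.48 ± 0.64 SE for miR-140 and 0.30 ± 0.96 SE for miR-455 (limma adjusted p = 0.961 and 0.999). In each of these comparisons and in day 7 injured versus contralateral cartilage, 0% of the 111 hairpins were called.

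The within-group SD of the log2 arm ratio was 0.58 for miR-140 and 0.92 for miR-455, beside a median of 0.60 over the 111 hairpins. This places miR-140 (60 of 111 from the most variable) in the middle and miR-455 (18 of 111) among the more variable hairpins. Without day 7 contralateral replicate 1 the SD was 0.43 for miR-140 (72 of 111) and 0.85 for miR-455 (17 of 111), with a median of 0.49, and the highest miR-455 ratio was 3.53 in place of 6.42.

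The arm ratio of miR-140 moved with a trend in base composition over the other miRNAs of the library. For each library a GC trend was taken, the slope of log2 level (relative to the mean over libraries) on the G and C content of the mature sequence, per 10 percentage points, over 362 of the 428 tested miRNAs (84.6%) without the 4 members. It ran from -0.196 in day 7 contralateral replicate 3 to 0.367 in day 1 injured replicate 2, followed by naïve replicates 3 (0.278) and 5 (0.159). Over the 18 libraries, after the group means had been removed, the log2 arm ratio of miR-140 correlated with the GC trend with r = -0.78 (permutation within groups, p = 0.00011, adjusted p = 0.00033 over 6 relations) and rho = -0.71 (permutation p = 0.00563, adjusted p = 0.0169). Without the 2 libraries whose arm ratio, not GC trend, lay farthest from the median after removal of group means, r was -0.80. For miR-455 r was -0.50 (permutation p = 0.0692, adjusted p = 0.104) and rho -0.52 (permutation p = 0.078, adjusted p = 0.111), and r was -0.68 without the 2 farthest libraries. Without day 7 contralateral replicate 1 r was -0.91 for miR-140 and -0.70 for miR-455. This relation was looked for after the data had been seen.

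For the levels the relation was clearest in miR-140-5p, with r = -0.77 (permutation p = 7e-05, adjusted p = 0.00033) and rho = -0.78 (permutation p = 0.00201, adjusted p = 0.0121). It was r = -0.56 for miR-455-5p (permutation p = 0.0458, adjusted p = 0.0915, rho = -0.57 with permutation p = 0.0423 and adjusted p = 0.0847) and r = 0.40 for miR-455-3p (permutation p = 0.142, adjusted p = 0.170, rho = 0.49 with permutation p = 0.0927 and adjusted p = 0.111). For miR-140-3p it was r = 0.25 (permutation p = 0.404, adjusted p = 0.404, rho = 0.11 with permutation p = 0.726 and adjusted p = 0.726). Without the 2 libraries farthest in the level of the miRNA, not in GC trend, these r were -0.77, -0.41, 0.32 and 0.28. Without day 7 contralateral replicate 1 they were -0.88, -0.61, 0.65 and 0.21. miR-140-5p was thus lower in libraries where G- and C-rich miRNAs were higher, and the other 3 relations did not pass.

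**Figure D5:**
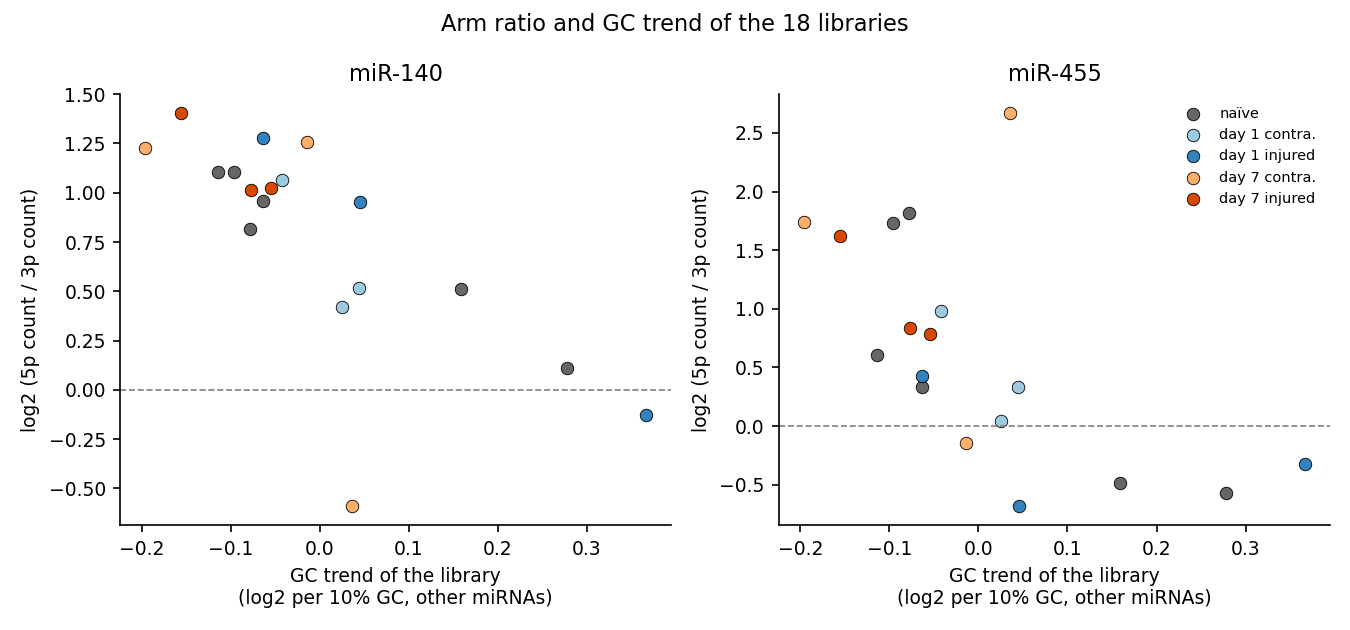
Log2 ratio of 5p to 3p counts (y axis) against the GC trend of the library (x axis, log2 per 10 percentage points of G and C over other miRNAs) for miR-140 (left) and miR-455 (right), with 1 point per library coloured by group. The miR-140 ratio falls as the trend rises (r = -0.78 after removal of group means), and day 7 contralateral replicate 1 lies off this line at the bottom.

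The arms were also compared with each other over the 18 libraries, after removal of group means, together with the summed skeletal muscle miRNAs (10 relations). None passed the adjustment. The arms of miR-455 ran in opposite directions with r = -0.60 (permutation p = 0.033, adjusted p = 0.165) and rho = -0.65 (permutation p = 0.0178, adjusted p = 0.0889), and with r = -0.52 without the 2 farthest libraries. The arms of miR-140 had r = -0.07 (permutation p = 0.85, adjusted p = 0.945) and rho = -0.07 (permutation p = 0.828, adjusted p = 0.828), and r = 0.09 without the 2 farthest libraries. miR-455-3p and the summed muscle miRNAs had r = -0.56 (permutation p = 0.0197, adjusted p = 0.165) and rho = -0.62 (permutation p = 0.0149, adjusted p = 0.0889), with r = -0.43 without the 2 farthest. The other 7 relations had adjusted p of at least 0.202 for r.

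Each arm had its own nearest neighbours among the 173 tested miRNAs that averaged 100 CPM or more, by Pearson correlation of log2 CPM over the 18 libraries. Group means were not removed here, so differences between groups also enter r. These libraries share scaling and base-composition trends as well, so the values are a description. miR-140-5p was most like miR-126a-5p (r = 0.92), miR-126b-3p (0.92, 39.1% G and C) and miR-27a-3p (0.87, 52.4% G and C). The first 2 had nearly the same mean, 317.7 and 319.4 CPM, and whether they hold the same reads was not tested. miR-126 is best known from endothelium, and its more abundant strand, miR-126a-3p (mean 56524 CPM), was not among these neighbours. The library with the largest vascular share, day 7 contralateral replicate 1, had the lowest miR-140-5p level. That share includes miR-126a-5p but is mostly miR-126a-3p, and a vascular source of miR-140-5p was not tested. miR-455-3p was most like miR-574-3p (0.89), miR-351-5p (0.79) and miR-744-5p (0.76), which hold 59.1%, 62.5% and 63.6% G and C against a median of 47.7% over the miRNAs with a sequence. miR-455-5p was most like miR-872-5p (0.78), miR-152-5p (0.74) and miR-21a-5p (0.74), with 38.1%, 45.8% and 36.4% G and C. miR-140-3p had no close neighbour, with 0.43 for miR-486b-3p, 0.42 for miR-23a-3p (47.6% G and C) and 0.41 for miR-486a-3p. The miR-486 arms had similar means, 363.3 and 374.4 CPM, and whether they share reads was not tested. No sequence was matched for them or for miR-126a-5p. No miRNA was among the nearest 3 of both arms of a hairpin.

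Other miRNAs studied in chondrocytes gave the setting for these values. Of 28 listed, 24 were tested, and limma-voom called 5 higher and 0 lower in day 7 injured than in naïve cartilage, where 14.5% of all tested miRNAs were called higher. It called 4 higher and 0 lower against the day 7 contralateral knee (13.8% of all called higher), against day 1 injured cartilage (12.1%) and in the difference of the injury effects (6.78%). It called 0 in the comparisons that had no call in the whole table. Between naïve and day 7 injured cartilage their median log2 difference was 0.04, beside -0.00 over all tested miRNAs. The smallest p-values were those of miR-21a-5p, an injury-responsive miRNA of many tissues, at 3.61-fold (limma-voom adjusted p = 8.23e-05), and miR-495-3p of the imprinted Dlk1-Dio3 region, at 3.84-fold (adjusted p = 0.000135). The most abundant were miR-148a-3p (log2 fold change 0.47, limma-voom adjusted p = 0.656) and miR-26a-5p (-0.32, adjusted p = 0.494), which did not pass. The list was written with earlier results of these data known, so its counts describe the list only.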

How the data were processed

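Small RNA was sequenced from 18 libraries of pooled femoral condyle cartilage, prepared with the NEBNext small RNA kit. Per the study's methods and the submitters' processing notes, the authors trimmed reads (Trim Galore 0.6.6), aligned them to mature miRBase sequences with Bowtie 1.3.0, counted alignments with SAMtools 1.12 and deposited raw counts without normalisation. How reads matching several mature sequences, or running past their ends, were counted is not given in the sources used here. Groups came from the treatment labels. The library number linked table rows and samples, whose prefixes before it were not the same. Replicates were numbered in accession order.

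The edgeR 4.0.16 function filterByExpr (minimum count 10, minimum total 15) set which miRNAs were tested. Library sizes were TMM-scaled, and a limma-voom model (limma 3.58.1, R 4.3.3) with a mean for each of the 5 groups used all 18 libraries. P-values were two-sided and adjusted within each comparison by the Benjamini-Hochberg method over 428 miRNAs, with a threshold of 0.05. The study's term for libraries from the same mice could not be fitted, because the labels do not tie libraries to pools. Arm ratios, log2 of 5p over 3p counts with 0.5 added to each, were fitted with limma over 111 hairpins. Correlations used log2 CPM (prior count 2), deviations from group means and 100000 permutations within groups. Those with the nearest neighbours kept the group means and had no permutation. DESeq2 1.42.0 and edgeR's quasi-likelihood test were alternatives. Scripts were tested on simulated data. The depth was 758388 to 4088852 counts per library. At this depth the counting SD of the log2 arm ratio was 0.028 for miR-140, beside a within-group SD of 0.58. It was larger, 0.147, for miR-455, beside a within-group SD of 0.92.

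The 4 miRNAs and all lists were chosen with earlier results of these data known. Named were these 4, the 3 miRNAs most like each (mean of at least 100 CPM), miRNAs sharing a seed and, of the chondrocyte list, the 2 with the smallest p-values in day 7 injured versus naïve cartilage and the 2 most abundant. The GC trend, as a covariate and in correlations, and the spreads without day 7 contralateral replicate 1 were added after seeing the data.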

Additional observations from a re-analysis of the deposited data

How the results depend on the processing

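No paired analysis was possible because the labels give no replicate numbers. The miR-455-5p call in day 7 versus day 1 injured cartilage was kept under 8 of 10 alternatives and without 14 of 18 libraries. The number of the 4 miRNAs called there became 0 with every miRNA kept and with the GC trend as a covariate. With 1 library left out, it was 0 to 1 there and in day 7 injured versus naïve cartilage. None of the other differences whose sign changed had passed the test, and the causes were not tested. The depth limits miR-455-3p most, with 48 to 608 counts per library.

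Signs that changed are given as log2 differences. With the GC trend as a covariate, miR-140-5p turned to -0.014 (day 7 injured versus naïve), 0.17 (day 1 injured versus contralateral), 0.096 (day 1 injured versus naïve) and -0.11 (day 7 versus day 1 injured), miR-455-3p to 0.13 (day 7 versus day 1 injured) and miR-140-3p to 0.012 (day 7 injured versus contralateral). The arm ratio turned to 0.25 for miR-140 (day 1 injured versus naïve) and -0.16 for miR-455 (day 7 less day 1 effect). With quality weights, miR-140-5p turned to 0.098 (day 1 injured versus contralateral), 0.135 (day 7 contralateral versus naïve) and -0.062 (day 7 less day 1 effect), miR-455-3p to 0.0016 (day 7 contralateral versus naïve) and miR-140-3p to 0.055 (day 7 injured versus contralateral). In the last comparison miR-140-3p also turned to 0.0079 with DESeq2 size factors, 0.038 with at least 10 counts in every library and 0.048 without muscle miRNAs. In day 7 injured versus naïve cartilage miR-455-3p turned to -0.039 with library totals, -0.013 with edgeR and -0.034 with DESeq2.

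Leaving out 1 library in turn gave these ranges where a sign changed. In day 7 injured versus naïve cartilage they were -0.18 to 0.094 for miR-140-3p and -0.044 to 0.33 for miR-455-3p. In day 7 injured versus contralateral cartilage they were -0.13 to 0.200 for miR-140-3p, -0.096 to 0.83 for the miR-140 arm ratio and -1.12 to 0.29 for the miR-455 arm ratio. At day 1 they were -0.38 to 0.15 (versus contralateral) and -0.51 to 0.017 (versus naïve) for miR-140-5p, and -0.26 to 0.44 and -0.36 to 0.35 for the miR-140 arm ratio. The range was -0.32 to 0.013 for miR-455-3p in day 7 versus day 1 injured cartilage. In day 7 contralateral versus naïve cartilage it was -0.54 to 0.28 for miR-140-5p, -0.19 to 0.075 for miR-140-3p and -1.08 to 0.00016 for miR-455-3p. The day 7 less day 1 effect ranged from -0.16 to 0.91 for miR-455-3p, from -0.13 to 0.80 for the miR-140 arm ratio and from -0.48 to 0.93 for the miR-455 arm ratio.

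Without muscle miRNAs in the library size, levels moved by more than 1 SD for miR-140-3p, to 3278 CPM in naïve, 3189 in day 1 contralateral, 3143 in day 7 contralateral and 3169 in day 7 injured cartilage, for miR-455-5p in day 1 contralateral (159 CPM) and for miR-455-3p in day 7 injured cartilage (132.5 CPM). With library totals in place of TMM, r turned to 0.12 for the arms of miR-140, 0.25 for miR-140-3p with miR-455-3p, and -0.27 and -0.10 for miR-140-5p and miR-455-5p with muscle miRNAs. For miR-455-3p with muscle miRNAs r became -0.72, which then passed (permutation adjusted p = 0.0062). Both were then shares of the counts of a library, so a larger muscle share lowers the other share. The test cannot tell this from a relation between them. Without removal of group means, r was -0.11 for miR-140-5p with muscle miRNAs.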
